A study of Rattus norvegicus with 90 samples.

Results

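The transcripts described here were far more abundant in liver than in kidney or heart of vehicle-treated rats, and held neither the most abundant nor the scarcest of such liver-restricted transcripts. They were chosen from the 40071 transcripts with an Ensembl identifier by their level in TPM (a level scaled for transcript length and library size) in vehicle-treated rats. A transcript was kept when its mean in liver was at least 20 times both its kidney mean plus 0.1 TPM and its heart mean plus 0.1 TPM, which left 458 transcripts. Those ranked 61 to 300 by liver mean were taken, so that the group has 240 members. The 9 vehicle liver libraries and the 10 vehicle libraries each of kidney and heart that entered this choice fix the organ difference, which is therefore given as a description without a test.

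The study examined early transcript changes after thioacetamide, a compound that damages the liver. Adult male Sprague-Dawley rats with an implanted vascular catheter received 1 intraperitoneal injection of saline (vehicle), of 25 mg/kg thioacetamide (low dose) or of 100 mg/kg thioacetamide (high dose), and liver, kidney and heart were taken 8 h or 24 h later. Each of the 18 groups of organ, dose and time had 5 libraries, 90 in all. The rats of the 8 h study had no food after the injection, and those of the 24 h study had none during the last part of the period, so that the times differ in feeding as well as in duration.

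Hepatocytes make most plasma proteins and hold the enzymes that process bile acids, amino acids, steroids and foreign compounds, and many of the transcripts for these tasks are scarce in other organs. Thioacetamide is itself converted to its reactive form by oxidizing enzymes of the hepatocyte. The files name transcripts by Ensembl identifier only and no table used here pairs these identifiers with gene symbols, so that each member is named by its identifier, without a role, and no sequence is shown. For the same reason neither the hepatocyte origin of the members nor the presence of other cell types could be examined by marker genes. In whole tissue, fewer cells of a type and less RNA per cell cannot be told apart.

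Libraries held 16332764 to 36303248 estimated counts. Between 4.08% and 28.9% of a library's counts lay on targets named by genomic interval in place of a transcript, and 6 liver libraries exceeded 15%, namely MS-16 (vehicle, 8 h), MS-15 and MS-18 (low dose, 8 h), MS-14 (high dose, 8 h) and MS-19 and MS-21 (vehicle, 24 h). Library MS-1, labelled liver vehicle 24 h, repeated library MS-9, labelled liver low dose 8 h. Of 15797 transcripts with at least 10 counts, 99.96% agreed within 1 count. Such a difference is below sampling noise, so the pair was counted as 1 sample, MS-1 was left out and the 24 h vehicle group of liver has 4 libraries. The labels do not say which of the 2 was mislabelled, and the counts of the comparisons that hold either library are also given with MS-1 or without MS-9.

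In vehicle-treated rats the members' mean level in liver ran from 34.8 to 982 TPM, with a median of 168 TPM. Their median was 0.303 TPM in kidney and 0.0252 TPM in heart. The median ratio of liver to kidney was 437 and that of liver to heart 925, with 0.1 TPM added to the denominator, and 178 members were at least 100 times higher in liver than in both. Kidney gave the smaller of the 2 ratios for 201 members. No vehicle library of kidney held a count for 11 members, and none of heart for 31. These levels show a group that mostly lies far from the limit of the rule, with kidney the nearer organ.

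**Figure D1:**
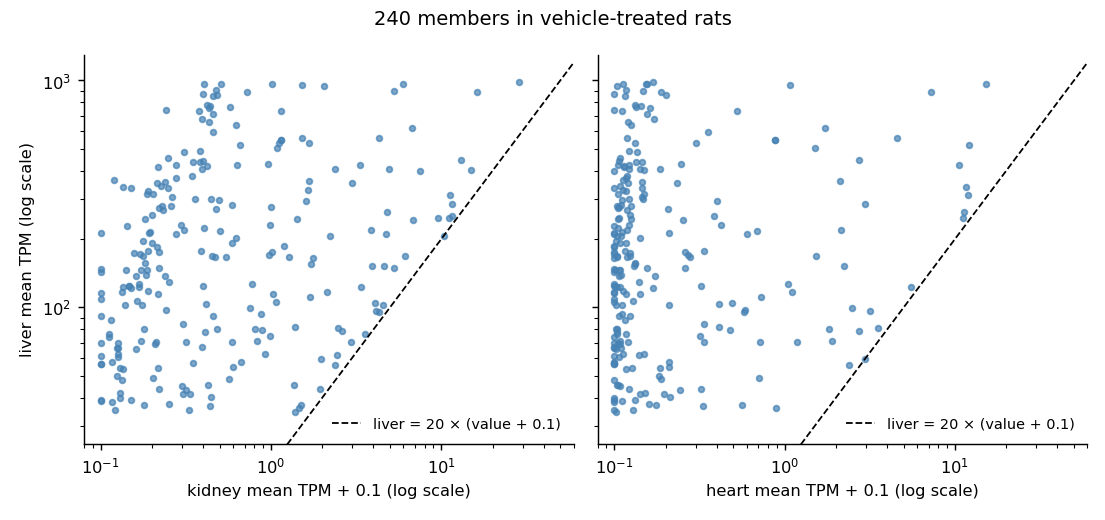
Mean TPM of each of the 240 members in vehicle-treated rats, liver (vertical axis) against kidney (left) and heart (right) with 0.1 TPM added, on log scales. Each point is a transcript and the dashed line is the 20-fold limit. The points lie to the left of the line, and more of them lie near it in the kidney panel.

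At the edges of the choice, the transcript of rank 60 had a liver mean of 1019 TPM against 982 TPM at rank 61, and rank 300 had 34.8 TPM against 34.5 TPM at rank 301. ENSRNOT00000015723 was just inside the organ limit at a ratio of 20.004, and ENSRNOT00000020233 just outside it at 19.97.

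Among the 9 vehicle livers the coefficient of variation of a member's TPM had a median of 29.5%, beside 26.9% over the 13320 transcripts with a vehicle liver mean of at least 1 TPM. ENSRNOT00000079760 varied least, at 13.8%, and ranged from 26.5 to 41.9 TPM. ENSRNOT00000078692 varied most, at 228%, and ranged from 1.27 to 287 TPM. Its place among the members rests on 1 library, because MS-16 held 76.9% of its summed vehicle level and its mean in the other libraries was 10.8 TPM. It was the single member with over 50% of its vehicle level in 1 library. The members were 71 to 14073 bases long, with a median of 1713.5 bases beside 1879 bases for the expressed transcripts. Members that share sequence cannot be told apart by pseudoalignment. ENSRNOT00000032536 and ENSRNOT00000064029, both of 504 bases, had the same TPM in all 90 libraries within a relative tolerance of 0.001, as did ENSRNOT00000091889 and ENSRNOT00000062160, both of 81 bases. Each such pair holds 1 measurement, counted as 2 members.

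The members together made up the lowest share of all transcript TPM in liver at the high dose after 24 h. At 8 h the share was 7.56%, 7.16%, 5.13%, 6.67% and 6.90% in the vehicle livers, 5.83%, 6.06%, 4.25%, 4.20% and 5.74% at the low dose, and 6.23%, 5.69%, 3.44%, 6.06% and 5.24% at the high dose. The groups overlapped at 8 h, and the lowest values of each group were those of the libraries with over 15% interval counts. At 24 h it was 6.44%, 4.98%, 6.95% and 5.10% in the vehicle livers, 5.19%, 5.11%, 5.85%, 5.53% and 5.45% at the low dose, and 4.005%, 3.45%, 4.05%, 3.91% and 3.06% at the high dose. All 5 high dose libraries at 24 h were below every vehicle and low dose library of that time, while low dose and vehicle overlapped.

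**Figure D2:**
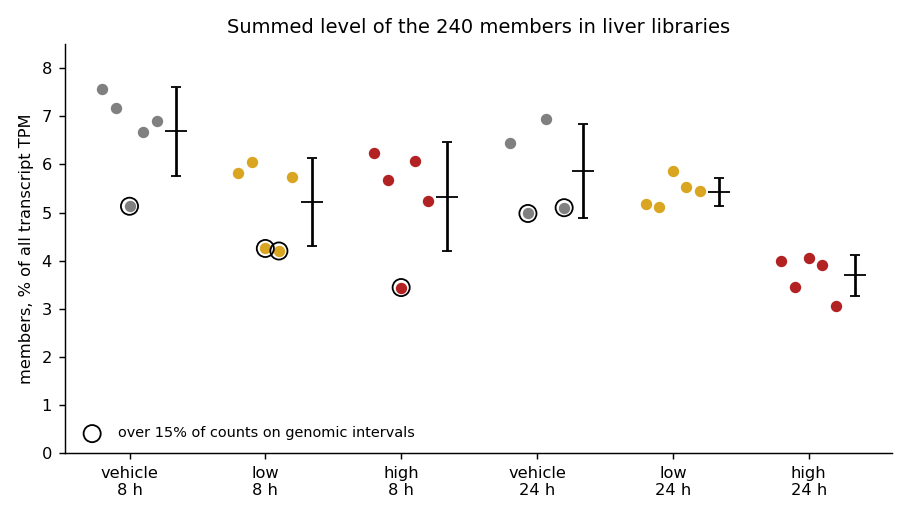
Summed TPM of the 240 members as a percent of all transcript TPM in each liver library (points), by dose and time, with the group mean and SD to the right of the points. Circles mark libraries with over 15% of counts on genomic intervals, and MS-1 is left out. The 5 high dose libraries at 24 h lie between 3.06% and 4.05%, below all other libraries of that time.

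Each dose was compared with the vehicle of its time to ask which members changed. A member was called when its adjusted p (edgeR quasi-likelihood test, Benjamini-Hochberg over all transcripts tested) was at most 0.01 and its fold change at least 0.60 on the natural-log scale, which is 0.866 on the log2 scale. The vehicle libraries entered both the choice of members and these comparisons. A transcript picked for a high vehicle mean leans towards a fall, and members were therefore read beside all transcripts tested, and beside the comparison of high with low dose, which holds no library used by the rule. Counts of members by size of fall, by sign or at an unadjusted p are not given over all transcripts. No excess is read from those counts.

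At the low dose after 8 h, 39 of 240 members tested fell and none rose, where 4.1% of the 16341 transcripts tested fell and 5.78% rose. Without regard to the adjustment, 1 member was higher and 180 lower at p of 0.05, and DESeq2 also called none higher. The median log2 fold change of the members was -0.64, beside 0.00 over all transcripts, and 229 members were below 0. Of the called falls, 31 were at least 2-fold and 4 at least 4-fold, and 54 of the 240 tested were at least 2-fold lower whether called or not. Without MS-9, 32 of 240 members were called. All 5 treated libraries were below all 5 vehicle libraries for 87 members, beside 11.7% of all transcripts tested.

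ENSRNOT00000012819 had the largest fall at this dose and time. It measured 127, 108.6, 147, 55.9 and 328 CPM (counts scaled to library size over the 30 liver libraries) in the vehicle livers and 3.42, 8.87, 9.22, 13.7 and 10.8 CPM at the low dose, a log2 fold change of -4.06 (SE 0.49, adjusted p = 0.000185). Vehicle and treated libraries were thus apart by a wide gap. At the high dose it stood at 3.44, 8.94, 14.3, 9.30 and 11.9 CPM, and the 2 doses overlapped, with a log2 difference of 0.07 (SE 0.38, adjusted p = 0.93). This transcript ranked 299 among the liver-restricted transcripts and was absent from the heart libraries used by the rule, with a heart mean of 0 TPM.

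ENSRNOT00000018795, one of the most abundant members at rank 67, fell at both doses and both times. It was at 1111, 1527, 909, 1795 and 1312 CPM in the vehicle livers at 8 h, at 198, 394, 240.0, 238 and 263 CPM at the low dose, and at 151, 175, 98.1, 119 and 104 CPM at the high dose. No library of one dose reached the range of another, in the order vehicle, low, high. The log2 fold change was -2.32 (SE 0.22, adjusted p = 5.6e-05) at the low dose and -3.34 (SE 0.23, adjusted p = 2.86e-06) at the high dose.

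A further 3 members were named at the low dose and 8 h. ENSRNOT00000026355 ran from 401 to 1353 CPM in the vehicle livers and from 105.4 to 235 CPM in the treated ones, a log2 fold change of -2.14 (SE 0.37, adjusted p = 0.0013). ENSRNOT00000076466 was at 19.9 to 69.8 CPM against 3.15 to 17.3 CPM, a log2 fold change of -2.03 (SE 0.44, adjusted p = 0.00455), and lost its call without MS-9, MS-18, MS-28 or MS-29. ENSRNOT00000001876 was at 34.5 to 78.6 CPM against 3.03 to 23.8 CPM, a log2 fold change of -1.80 (SE 0.44, adjusted p = 0.0094), close to the limit, and lost its call when any of 9 libraries was left out (each of them except MS-18). The call of this last one is therefore not firm at the low dose.

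At the high dose after 8 h, 39 of 237 members tested fell and none rose, where 7.75% of the 16468 transcripts tested fell and 12.4% rose. At an unadjusted p of 0.05, 2 members were higher and 136 lower, and DESeq2 called none higher. The median log2 fold change was -0.52 beside -0.02 over all transcripts. Among the members, falls of at least 8-fold numbered 9, against 1 at the low dose, with no such count given over all transcripts. Complete separation below the vehicle range was seen for 65 members, or 27.4% of those tested, beside 16.7% of all transcripts tested.

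ENSRNOT00000001876 showed the largest fall at 8 h. The vehicle livers held 34.5, 47.8, 78.6, 73.1 and 42.3 CPM, the low dose livers 14.7, 23.8, 21.97, 3.03 and 16.5 CPM and the high dose livers 2.46, 1.33, 1.32, 2.33 and 0.935 CPM. The 3 doses did not overlap, and the high dose gave a log2 fold change of -5.04 (SE 0.34, adjusted p = 2.84e-06). ENSRNOT00000076466 reached 4.71, 2.88, 5.22, 1.59 and 2.25 CPM at the high dose, a log2 fold change of -3.62 (SE 0.42, adjusted p = 5.7e-05). ENSRNOT00000076059 stood at 64.8, 65.04, 33.8, 151 and 160 CPM in the vehicle livers and at 2.67, 2.57, 0.527, 10.5 and 18.9 CPM at the high dose, a log2 fold change of -3.69 (SE 0.79, adjusted p = 0.00284). Its high dose libraries differed among themselves more than those of the other named members, over a range from 0.527 to 18.9 CPM.

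Falls were more numerous at the low dose after 24 h, where 42.4% of 238 members tested fell and none rose, beside 4.15% of the 16754 transcripts tested that fell and 4.89% that rose. At an unadjusted p of 0.05, 4 were higher and 188 lower, and DESeq2 called none higher. The median log2 fold change was -0.86 beside 0.02 over all transcripts. All 5 treated libraries were below all 4 vehicle libraries for 140 members, beside 12.3% of all transcripts tested. With MS-1 kept under its label the count of falls was 40 of 238, where 0.954% of the transcripts tested fell, and the median was -0.72. On log2(TPM + 1) with limma, 12 members were higher and 17 lower, with a median of -0.04, while the median over all transcripts rose to 0.59. The members' median thus stayed below that of all transcripts with limma on TPM, while falls were fewer and only slightly outnumbered rises. The share of all transcripts called with limma is not given, so no excess of falls is read from these limma counts.

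ENSRNOT00000010639 had the largest fall at this dose and time. It was at 121, 184, 159, 250 and 110 CPM in the vehicle livers at 8 h, and at 100.0, 94.9, 32.1, 65.9 and 106.4 CPM (low dose) and 44.8, 111, 107, 48.3 and 100.3 CPM (high dose) in the treated ones, with neither dose called at that time. Mean levels at 8 h were 165 CPM with vehicle, 79.8 CPM at the low dose and 82.3 CPM at the high dose. Every low dose library was below every vehicle library at 8 h, while the high dose overlapped the vehicle. It was thus not shown to be unchanged at 8 h. At 24 h the vehicle livers held 417, 344, 410 and 267 CPM, the low dose livers 3.92, 5.94, 2.25, 6.35 and 4.21 CPM and the high dose livers 5.86, 7.32, 6.001, 2.19 and 6.61 CPM. Both doses lay in one range, far below the vehicle, with log2 fold changes of -6.35 (SE 0.30, adjusted p = 2.3e-05) and -6.07 (SE 0.34, adjusted p = 3.89e-06). The high dose minus low dose difference was 0.31 (SE 0.34, adjusted p = 0.515).

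ENSRNOT00000028196 had a like course. At 8 h it was at 69.4 to 186 CPM in the vehicle livers, 56.8 to 117 CPM at the low dose and 49.5 to 122 CPM at the high dose, and these groups overlapped. At 24 h the values were 53.1, 145, 219 and 125 CPM (vehicle), 19.7, 12.8, 12.3, 14.6 and 7.31 CPM (low dose) and 7.45, 4.56, 12.4, 9.06 and 8.34 CPM (high dose). The fold changes at 24 h were -3.39 (SE 0.39, adjusted p = 0.000281) and -4.09 (SE 0.40, adjusted p = 3.1e-05) on the log2 scale.

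The remaining members named at the low dose and 24 h were ENSRNOT00000059320 (29.7 to 76.01 CPM in vehicle livers, 1.40 to 8.06 CPM at the low dose, 2.02 to 10.1 CPM at the high dose), ENSRNOT00000044186 (19.4 to 48.1, 2.16 to 6.67 and 1.497 to 9.35 CPM) and ENSRNOT00000076074 (49.1 to 167, 5.24 to 20.96 and 8.70 to 35.6 CPM). Their log2 fold changes at the low dose were -3.40 (SE 0.47), -2.95 (SE 0.34) and -2.90 (SE 0.42), and all 3 were called. At the high dose they were -2.98, -2.91 and -2.25, so that these members, like ENSRNOT00000010639, were about as low at 25 mg/kg as at 100 mg/kg, with high minus low differences of 0.45 (SE 0.47), 0.06 (SE 0.42) and 0.69 (SE 0.40), none of them called.

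At the high dose after 24 h, 194 of 238 members tested fell and 2 rose, where 13.6% of the 17137 transcripts tested fell and 13.2% rose. The median log2 fold change was -1.78 beside 0.04 over all transcripts. Of the called falls, 190 were at least 2-fold, 96 at least 4-fold and 23 at least 8-fold, and 205 of the 238 tested were at least 2-fold lower whether called or not. These counts by size describe the members only and are not given over all transcripts. All 5 treated libraries were below all 4 vehicle libraries for 198 members, beside 20.1% of all transcripts tested. With MS-1 under its label, 169 of 235 fell and 1 rose, where 8.85% and 7.44% of the transcripts tested did. On log2(TPM + 1) with limma, 97 fell and 9 rose, with a median of -0.72 beside 0.74 over all transcripts, so that the median of all transcripts was higher by 0.70 than in the edgeR fit. That setting changes both the scaling and the test, and fewer members were called under it. Its share of all transcripts called is not given, so no excess is read from its counts.

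**Figure D3:**
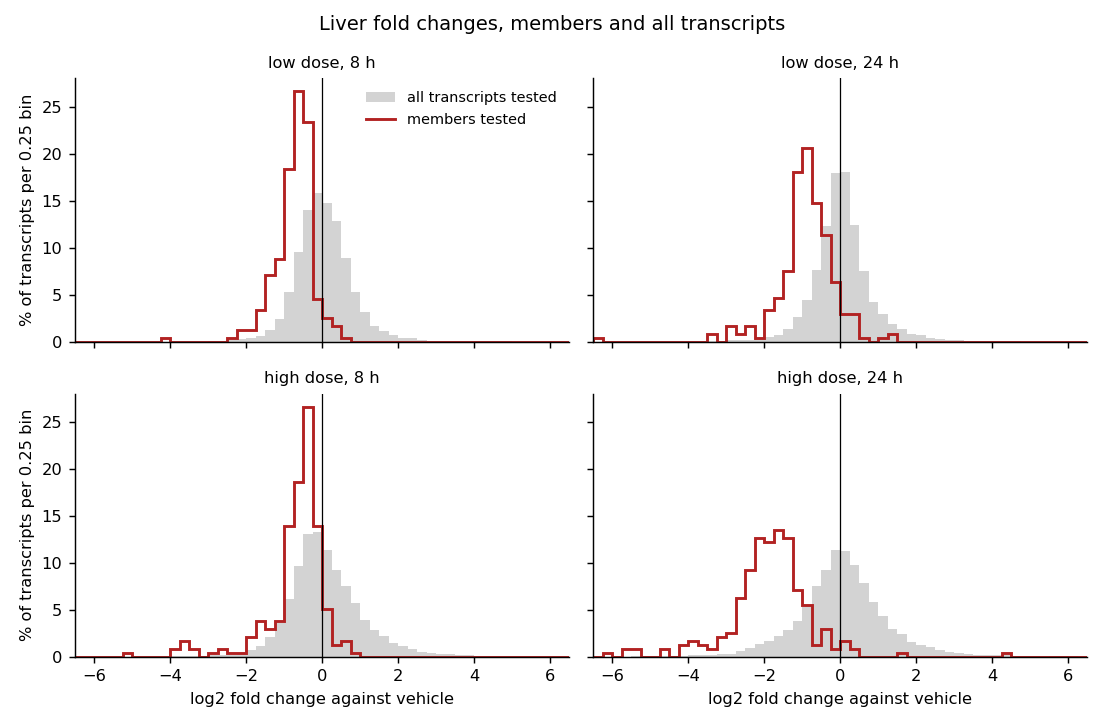
Percent of transcripts in each 0.25-wide interval of the log2 fold change in liver against vehicle, for the members tested (red line) and all transcripts tested (grey), by dose and time. The members' medians are -0.64 and -0.52 at 8 h and -0.86 and -1.78 at 24 h (low and high dose), while the grey distributions have medians between -0.02 and 0.04.

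Of the named falls at the high dose and 24 h, ENSRNOT00000018795 was at 467, 1466, 1589 and 1144 CPM in the vehicle livers, 228, 82.3, 396, 417 and 126 CPM at the low dose and 22.7, 28.7, 32.5, 18.98 and 31.2 CPM at the high dose. The 3 groups did not overlap, and the log2 fold change at the high dose was -5.52 (SE 0.37, adjusted p = 6.11e-06). ENSRNOT00000001876 was at 24.4, 42.8, 98.1 and 218 CPM (vehicle), 19.4, 9.71, 27.3, 53.4 and 88.7 CPM (low dose) and 3.25, 3.94, 2.27, 0.607 and 1.82 CPM (high dose). Here low dose and vehicle overlapped and the high dose stood apart, with a log2 fold change of -5.40 (SE 0.71, adjusted p = 0.000156).

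ENSRNOT00000001875 resembled it, with 187, 309, 511 and 1010 CPM (vehicle), 77.2, 154, 104, 169 and 210 CPM (low dose) and 27.8, 27.1, 37.8, 7.53 and 9.67 CPM (high dose), a log2 fold change of -4.60 (SE 0.63, adjusted p = 0.000199). ENSRNOT00000073468, a low-abundance transcript of 435 bases, was at 22.5, 30.3, 30.2 and 18.9 CPM in the vehicle livers and at 2.10, 0.683, 0.758, 0 and 0 CPM at the high dose, a log2 fold change of -5.27 (SE 0.77, adjusted p = 0.000312). With 2 libraries at 0, the size of this last fall is imprecise.

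The 2 rises were those of members with uneven vehicle levels, of a coefficient of variation of 228% and 112%. ENSRNOT00000078692 was at 6.09, 9.81, 3.98 and 33.5 CPM in the vehicle livers at 24 h, 27.7, 45.8, 23.6, 41.5 and 41.9 CPM at the low dose and 447, 228, 127, 448 and 271 CPM at the high dose, a log2 fold change of 4.42 (SE 0.70, adjusted p = 0.000491). The vehicle livers at 8 h held 154, 3.92, 927, 3.55 and 4.13 CPM, and the high dose livers at 8 h held 652, 291.7, 121, 682 and 130.1 CPM, so that 1 vehicle exceeded every treated library. The change at 8 h was 0.74 (SE 1.37) and was not called. With MS-1 kept as a vehicle (137 CPM), the fold change fell to 3.01 and was no longer called. ENSRNOT00000042643, a transcript of 380 bases, was at 41.8, 55.4, 41.5 and 63.6 CPM in the vehicle livers at 24 h and at 189, 117, 81.3, 213 and 155 CPM at the high dose, a log2 fold change of 1.503 (SE 0.28, adjusted p = 0.00122). At 8 h its vehicle livers ranged from 35.8 to 404 CPM and its high dose livers from 54.6 to 464 CPM.

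**Figure D4:**
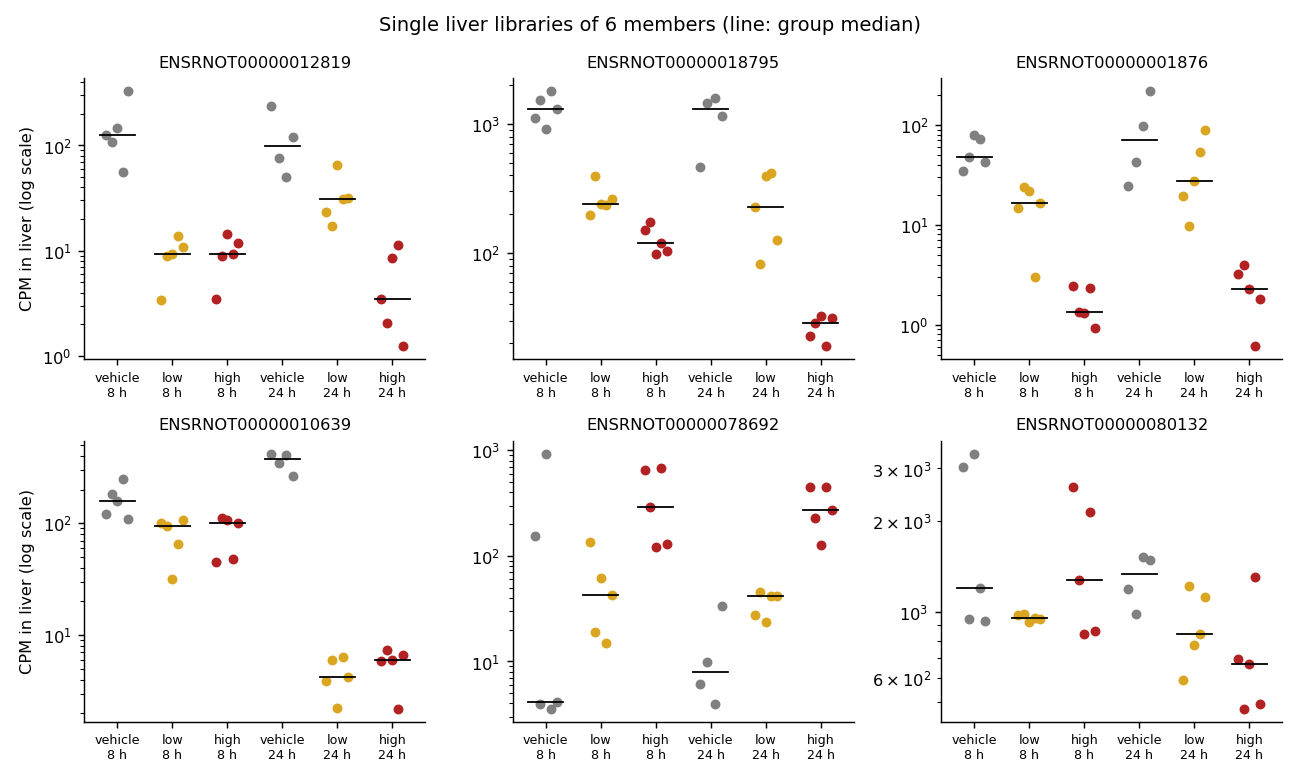
CPM of 6 named members in every liver library (points, log scale) by dose and time, with the group median as a line and MS-1 left out. ENSRNOT00000012819 is lower at both doses after 8 h and ENSRNOT00000018795 at both doses and times. ENSRNOT00000001876 is lowest at the high dose. ENSRNOT00000010639 is far below its vehicle range at 24 h at both doses. At 8 h its low dose libraries lie below the vehicle range and its high dose libraries overlap it. ENSRNOT00000078692 lies above its 24 h vehicle range at the high dose and 24 h, while its 8 h groups overlap. ENSRNOT00000080132 was called in no comparison with vehicle.

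The comparison of high with low dose used no library of the rule. After 24 h, 79 of 236 members tested were lower at the high dose and 1 higher, where 3.84% of the 17101 transcripts tested were lower and 2.76% higher. The median log2 difference was -0.88 beside 0.03 over all transcripts, and 222 members were below 0. All high dose libraries lay below all low dose libraries for 133 members, beside 11.4% of all transcripts tested. The members called in either direction numbered 50 without MS-7 and 52 without MS-26, in place of 80. ENSRNOT00000001876 showed the largest difference, of -4.04 (SE 0.63, adjusted p = 0.00181), followed by ENSRNOT00000018795 at -3.21 (SE 0.43, adjusted p = 0.00128). The single higher member was ENSRNOT00000078692, at 3.08 (SE 0.35, adjusted p = 0.00085). None of the libraries with over 15% interval counts is in this comparison.

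After 8 h the doses differed for few members. Of 235 tested, 7 were lower and 1 higher at the high dose, where 0.666% of the 16818 transcripts tested were lower and 1.73% higher, and the median log2 difference was 0.10. Separation below was seen for 12 members, beside 6.5% of all transcripts tested. ENSRNOT00000001876 differed by -3.25 (SE 0.50, adjusted p = 0.00343). ENSRNOT00000065614 was at 53.2, 60.2, 39.9, 63.8 and 46.03 CPM at the low dose and at 26.5, 21.1, 16.8, 25.3 and 20.1 CPM at the high dose, a difference of -1.25 (SE 0.16, adjusted p = 0.00165). ENSRNOT00000022384 was at 157, 129, 123, 93.0 and 146 CPM at the low dose and at 229, 246, 229, 226 and 273 CPM at the high dose, a difference of 0.90 (SE 0.13, adjusted p = 0.00297), while its vehicle livers ran from 63.9 to 302 CPM and overlapped both. These counts are fragile. The 8 calls fell to 7 without MS-9, to 3 without MS-11 or MS-15, to 4 without MS-12, MS-14, MS-18 or MS-27 and to 5 without MS-94, and without the libraries of over 15% interval counts edgeR called none of 236, with 52 at an unadjusted p under 0.05.

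Most of the members' falls at the high dose were called at 24 h and not at 8 h. Over all transcripts tested, 7.75% fell at 8 h and 13.6% at 24 h at this dose. At the low dose 4.1% and 4.15% did. A call at 24 h alone does not show that the fall was absent at 8 h, where 217 of 237 members tested were below 0. Of 237 members tested at both times, 38 fell at both, 1 at 8 h alone and 155 at 24 h alone, 2 rose at 24 h and 41 were called at neither. The falls called at both times were 97.4% of those at 8 h and 19.7% of those at 24 h, from comparisons with separate vehicle groups. The member called at 8 h alone, ENSRNOT00000071925, had log2 fold changes of -0.96 (SE 0.15) at 8 h and -0.90 (SE 0.25, adjusted p = 0.0116) at 24 h. At the low dose, of 238 members tested at both times, 24 fell at both, 15 at 8 h alone, 77 at 24 h alone and 122 at neither, which is 61.5% of the 8 h falls and 23.8% of the 24 h falls shared. For both doses, the joint counts over the times are not given over all transcripts. No excess is read from these joint counts.

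The difference between the times was tested as an interaction of dose and time. The effect of the high dose was lower at 24 h than at 8 h for 42.1% of 240 members and higher for 1 member (adjusted p of at most 0.01, no limit on size), where 5.43% and 4.78% of the 18398 transcripts tested were lower and higher. The median difference was -1.08 on the log2 scale. The member with a higher effect was ENSRNOT00000028332, at 1.08 (SE 0.23, adjusted p = 0.00331), named because it was the only one. ENSRNOT00000010639 had the largest difference, of -4.99 (SE 0.47, adjusted p = 4.7e-06), and ENSRNOT00000028196 differed by -3.46 (SE 0.55, adjusted p = 0.00029). ENSRNOT00000012819, low already at 8 h, differed by -0.52 (SE 0.82, adjusted p = 0.718). Without the libraries of over 15% interval counts 62 members were lower, beside 3.1% of the transcripts tested. With limma on log2(TPM + 1) the effects differed for 10.8% of the members in either direction, in place of 42.5%. The share over all transcripts with limma is not given.

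At the low dose the effects of the 2 times differed for 4 members in the downward and 2 in the upward direction, where 0.491% and 0.535% of the 17931 transcripts tested did, and the median difference was -0.14, which turned to 0.34 with limma on log2(TPM + 1). ENSRNOT00000010639 at -5.27 (SE 0.47, adjusted p = 2.3e-05) and ENSRNOT00000028196 at -2.82 (SE 0.52, adjusted p = 0.00597) were among them. The count was 3 with MS-1 under its label, 3 without MS-9 and 1 without MS-19, and leaving out another library gave between 2 and 6. This comparison was added after the data had been seen.

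Taking the comparisons with vehicle as a whole, 200 members were called in at least 1 of the 4 and 14 in all 4. The counts called in none, in at least 1 or in all 4 are not given over all transcripts, so no excess is read from them. These 14 had median log2 fold changes of -1.29 and -1.47 at 8 h and of -1.49 and -2.89 at 24 h (low and high dose), and the 2 doses of a time share their vehicle libraries. Besides ENSRNOT00000018795, ENSRNOT00000076466 and ENSRNOT00000065614, they included ENSRNOT00000054947, which was chosen after its values were seen, with -1.42, -1.42, -2.46 and -4.24 in the same order of time and dose.

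No comparison with vehicle called 40 members. The 3 most abundant of these were ENSRNOT00000080132, ENSRNOT00000090644 and ENSRNOT00000018545. ENSRNOT00000080132 was at 3030, 948, 3356, 1202 and 929 CPM in the vehicle livers at 8 h and at 2604, 1271, 840, 2140 and 860 CPM at the high dose. At 24 h it was at 1193, 980, 1526 and 1486 CPM in the vehicle livers and at 693, 474, 669, 1307 and 492.5 CPM at the high dose, a log2 fold change of -0.91 (SE 0.29, adjusted p = 0.0236). The vehicle livers at 8 h fell into low and high values, with MS-10 and MS-16 the highest for all 3 of these members and for ENSRNOT00000078692 and ENSRNOT00000042643. A member in this set is thus not shown to be steady, only not to have passed the limits.

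The 3 members of the highest vehicle level were called at the high dose after 24 h and in neither comparison with vehicle at 8 h. ENSRNOT00000015336, at 982 TPM the first in rank, had at 8 h log2 fold changes of 0.46 (SE 0.39) and 0.67 (SE 0.30), and at 24 h was at 4002, 2669, 3183 and 1480 CPM in the vehicle livers, 1507, 1270, 1588, 1689 and 1265 CPM at the low dose and 351, 333, 679, 608 and 181 CPM at the high dose. The high dose libraries were below all others, at -2.79 (SE 0.40, adjusted p = 0.000278). ENSRNOT00000054742 was below its vehicle range already at 8 h, at 1280 to 2387 CPM with vehicle, 857.5 to 1186 CPM at the low dose and 1008 to 1242 CPM at the high dose, with log2 fold changes of -0.75 (SE 0.17, adjusted p = 0.00594) and -0.67 (SE 0.17, adjusted p = 0.00663) that did not reach the fold limit. It changed by -2.08 (SE 0.33) at the high dose and 24 h and ENSRNOT00000080658 by -1.37 (SE 0.25), and both were called there.

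Most members fell at the high dose and 24 h in every group by abundance, length or organ ratio. The group of lowest abundance had the fewest falls. At the high dose and 24 h, 66 of the 80 members of the highest vehicle level fell, 72 of the 80 in the middle and 56 of 78 tested in the lowest group, with median log2 fold changes of -1.78, -2.01 and -1.60. By length, 66 of 78 members of up to 1401 bases fell, 65 of 80 of middle length and 63 of 80 of at least 2100 bases. By ratio of liver to the nearer organ, 61, 62 and 71 fell in 3 groups of 80 members of rising ratio, of 80, 78 and 80 tested. These counts were not tested against each other.

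Neighbouring ranks give a scale for the same counts. At 24 h and the high dose 50 of the 60 liver-restricted transcripts of ranks 1 to 60 fell, with a median of -1.64, and 74 of 133 tested of rank 301 and below, with a median of -1.57. At 8 h and the high dose 1 of 60, 39 of 237 and 39 of 133 fell in the order of rank 1 to 60, the members, and rank 301 and below. The share of members that fell at 8 h thus lay between those of the ranks above and below, which was not tested.

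Liver restriction was recomputed in each treated group with its own kidney and heart libraries, as a description. The vehicle libraries entered the rule, which favours a lower liver mean and a higher kidney or heart mean in any other group. No effect of dose is therefore read from the counts set beside vehicle. In the 8 h groups the ratio of at least 20 was kept by 239 members with vehicle, 227 at the low dose and 224 at the high dose, and in the 24 h groups by 232, 220 and 206. At the high dose and 24 h 34 members lost it, 29 of them against kidney and 12 against heart, and 3 of the 34 were below it in the 24 h vehicle group too. Over these 34 the median liver level was 46.9 TPM beside 90.25 TPM in the 24 h vehicle group, and the median kidney level 3.67 TPM beside 2.94 TPM. The liver mean was lower for 31 of them and the kidney mean higher for 28. Of the 206 that kept the ratio, the liver mean was lower for 172 and the kidney mean higher for 154. Their median liver level was 87.15 TPM beside 160 TPM with vehicle. Their median kidney level was 0.524 TPM beside 0.284 TPM with vehicle, below that of the members that lost the ratio. Without MS-9, 227 members kept the ratio at the low dose and 8 h. With 1 TPM in place of 0.1 TPM in the denominator 181 members kept it at the high dose and 24 h. The ratio fell under 5 for ENSRNOT00000070861, at 2.43 with 85.6 TPM in liver (88.5 TPM with vehicle) and 35.1 TPM in kidney (3.95 TPM with vehicle), and for ENSRNOT00000016540, at 4.05 with 108.5 TPM in liver (799 TPM with vehicle) and 26.7 TPM in kidney (14.4 TPM with vehicle). Both were picked by their values.

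In kidney at the high dose and 24 h, 115 members passed the filter on low counts and 125 did not, so that the counts that follow are no statement on the members as a whole. Of the 115, 8 rose and 3 fell, where 2.15% of the 18967 transcripts tested rose and 2.04% fell. Of the 8 rises, 3 were those of members with fewer than 5 vehicle kidneys over the filter's limit of 0.445 CPM, ENSRNOT00000090272, ENSRNOT00000034784 and ENSRNOT00000073099. These passed the filter through the treated group and the filter favours a rise for them, so nothing is read from the count of rises. ENSRNOT00000070861 was at 16.6, 21.5, 26.5, 17.8 and 34.3 CPM (scaled over the 30 kidney libraries) in the vehicle kidneys and at 153, 231, 197, 116 and 202 CPM at the high dose, a log2 fold change of 2.95 (SE 0.24, adjusted p = 2.8e-05), while in liver it was at -1.13 (adjusted p = 0.018, not called). ENSRNOT00000034784 was at 1.47, 0.40, 0.11, 0.27 and 0.36 CPM in the vehicle kidneys and at 18.5, 18.4, 11.5, 8.15 and 6.32 CPM at the high dose, a log2 fold change of 4.54 (SE 0.60, adjusted p = 0.000603), and fell in liver by 1.40 on the log2 scale. These 2 were chosen after their values were seen. ENSRNOT00000034784 is among the members that the filter favours for a rise, so nothing is read from its adjusted p.

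The 3 falls in kidney were those of ENSRNOT00000001875, ENSRNOT00000001876 and ENSRNOT00000015723, also chosen after their values were seen. ENSRNOT00000001875 was at 19.04, 11.6, 13.9, 22.7 and 19.06 CPM in the vehicle kidneys and at 3.09, 3.39, 3.59, 4.52 and 2.67 CPM at the high dose, a log2 fold change of -2.33 (SE 0.22, adjusted p = 6.5e-05). ENSRNOT00000001876 changed by -2.56 (SE 0.37, adjusted p = 0.00112) and ENSRNOT00000015723 by -2.31 (SE 0.34, adjusted p = 0.00113). ENSRNOT00000001876 was scarce in kidney, at 1.16 to 3.17 CPM with vehicle and 0.245 to 0.633 CPM at the high dose. These high dose values lie around the filter's limit of 0.445 CPM, so the size of that fall is imprecise. All 3 also fell in liver at that dose and time. In this group kidney library MS-54 had a summed member level of 782 TPM beside 395 to 565 TPM in the other 4, and 12 members were called without it, 6 in each direction. The count was 7 without MS-103.

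Outside these comparisons most members were near the floor in kidney and heart. The highest vehicle mean of a member was 28.7 TPM in kidney and 15.2 TPM in heart. The summed TPM of the members was 286 to 782 in 29 of the 30 kidney libraries and 115 to 326 in the heart libraries, beside at least 29893 in liver. Kidney library MS-37 (low dose, 24 h) stood apart at 3520 TPM. In it 218 of the 240 members were higher than in each of the other 29 kidney libraries, and 200 were at least 5 times the median of the other 4 libraries of its group. The excess over those 4 had a median of 5.38% of the members' mean level in low dose livers at 24 h, with quartiles of 4.56% and 6.24%. Without MS-37, 227 members in place of 220 kept the organ ratio at the low dose and 24 h. No tested comparison used this library.

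**Figure D5:**
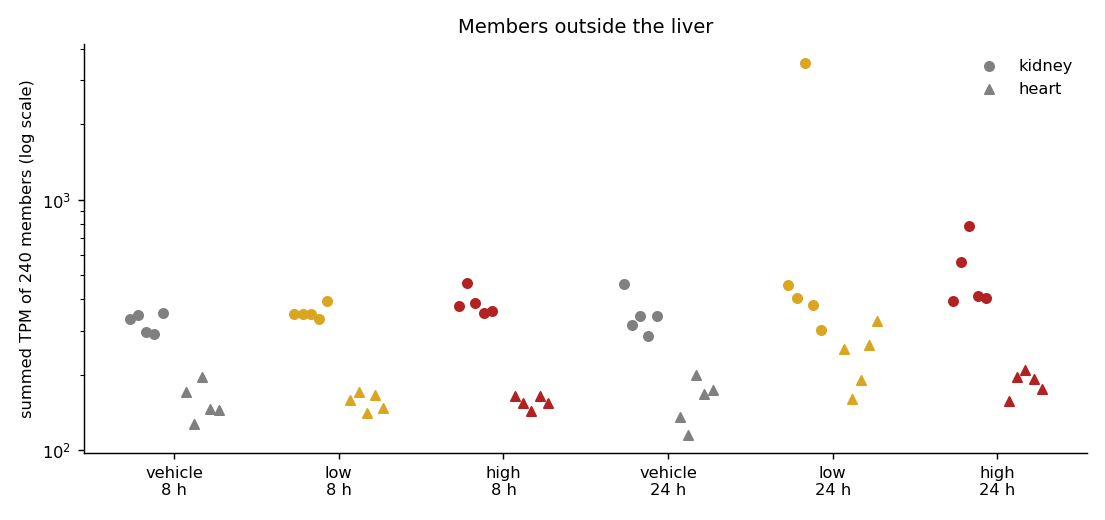
Summed TPM of the 240 members (log scale) in each kidney (circles) and heart (triangles) library, by dose and time. One kidney library at the low dose and 24 h is at 3520 TPM, while the others lie between 286 and 782 TPM and the heart libraries between 115 and 326 TPM.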

How the data were processed

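Poly-A libraries were prepared with a stranded kit and sequenced in pairs. Per the labels, the authors pseudoaligned reads with kallisto 0.42.2 to Rnor_6.0 targets, and deposited, for each target, a length, an effective length, estimated counts (an expected count need not be whole) and TPM. No replicates were pooled. Of the 65166 targets, 25095 named by genomic interval were left out of the fits and 40071 Ensembl transcripts kept. Labels do not say how libraries of one rat were matched, and p-values measure the spread between libraries of a group.

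The members and comparisons were chosen with earlier results of these data known. Estimated counts were rounded and tested with edgeR 4.0.16 (R 4.3.3, TMM, default filter on low counts). SE is the log2 fold change divided by the root of the F statistic. Alternatives were DESeq2 1.42.0 and limma 3.58.1 on log2(TPM + 1) or log2(TPM + 0.1), other normalization, filter, sample and member choices, and leaving out each library.

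In each comparison with vehicle, the 5 largest rises and falls were named among called members with a mean of at least 2 CPM and no overlap of groups, with the 2 largest in each direction between doses, the 3 most abundant members never called and the 3 most abundant of all. On simulated counts for the high dose at 24 h, on 15814 transcripts, edgeR recovered 64 of 100 changes of log2 size 1 and 98 of 100 of size 2, with 1 false call. For the interaction, on 16643 transcripts, it recovered 9 and 88 of 100, with 2 false calls. The simulation gave every transcript the same spread between libraries. The members' coefficient of variation in vehicle livers ran from 13.8% to 228%, so the rates in these data can differ. Depth was 16332764 to 36303248 estimated counts a library.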

Additional observations from a re-analysis of the deposited data

Results flagged for a closer look

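The summed TPM of the members stood apart in kidney library MS-37 (low dose, 24 h), at 3520 beside 303 to 454 in the other 4 of its group, and this library was in no tested comparison. In kidney library MS-108 (low dose, 8 h) the sum was 393.9 beside 334 to 350. ENSRNOT00000010639 was at 2.19 CPM in liver library MS-91 (high dose, 24 h) beside 5.86 to 7.32 CPM in the other 4. Of 74 groups of values examined 3 had such a library, and chance gives about 1 in 20.

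The effect of thioacetamide differed between 24 h and 8 h, tested by a dose-by-time term with edgeR, for 42.5% of the 240 members at the high dose and 2.5% at the low dose. Among the named transcripts, the log2 difference of the high dose effect, 24 h minus 8 h, was -2.08 for ENSRNOT00000018795 and -4.99 for ENSRNOT00000010639. For the low dose effect it was -5.27 for ENSRNOT00000010639 and -2.82 for ENSRNOT00000028196.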

How the results depend on the processing

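No named transcript changed direction under the alternatives run, and of 540 values of named transcripts under alternatives 499 kept their call and 41 lost it. The percent of members tested that were called moved by more than 1.5 times as follows. Shares of all transcripts called under the limma settings are not given. For the low dose at 8 h, 16.25% became 24.6% with DESeq2, 5.83% with limma on either pseudocount and 34.6% without a limit on the fold change. For the high dose at 8 h, 16.5% became 29.5% without that limit. For the low dose at 24 h, 42.4% became 12.2% with limma on either pseudocount and 16.8% with MS-1. For the high dose at 24 h, 82.4% became 44.5% with limma on log2(TPM + 1) and 44.96% on log2(TPM + 0.1). For high against low dose, 3.4% at 8 h became 6.38% with DESeq2, 1.70% and 0.851% with limma, 0% without the libraries of over 15% interval counts and 2.11% with members chosen at a ratio of 10, and 33.9% at 24 h became 22.5% with limma on either pseudocount. In kidney 9.57% became 4.23% with all 15 libraries in one fit. For the difference between times, 42.5% at the high dose became 10.8% and 10% with limma and 25.8% without the high-interval libraries. At the low dose 2.5% became 6.67% with DESeq2, 1.25% with limma, with all targets, with MS-1 or without MS-9, 4.58% with the interval share as a covariate and 0.417% without the high-interval libraries, and the median of -0.14 became 0.34 with limma. The cause was not tested. The 2 last settings, the low dose difference between times and the kept ratio without MS-37 or MS-9 were added after seeing the data.

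Leaving out each library in turn gave 13.3% to 22.5% (low dose) and 14.8% to 22.4% (high dose) at 8 h, 35% to 44.2% and 76.1% to 85.7% at 24 h, 1.27% to 3.38% and 21.2% to 43.5% between doses at 8 h and 24 h, 5.79% to 10.3% in kidney, and 33.3% to 43.75% and 0.417% to 2.5% for the high and low dose difference between times. No paired analysis was possible because the replicate numbers of the groups were given in accession order and tie no libraries together.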
